A study of Mus musculus with 6 samples.

Results

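Met, the receptor tyrosine kinase for hepatocyte growth factor, and Hgf, the gene of that ligand, were described in bulk-seq of whole spinal cord. They are 2 of the 25576 genes that had a value above 0 in at least 1 of the 6 libraries. Both were taken by their gene names, and the pair was chosen from earlier results of these same libraries, so their levels and their SMA against control differences are given as a description with no test. The mice were of the FVB strain and were taken at postnatal day 4. The 3 SMA libraries carry the genotype label mSmn-/-, hSMN22tg/0, a loss of both mouse Smn alleles with the human SMN2 transgene. The 3 control libraries carry the label mSmn+/-, hSMN22tg/0, so that control mice also lacked 1 mouse Smn allele and held the same transgene. Per the study's methods, these are Taiwanese SMA mice, bred from heterozygous knockout and mild Taiwanese mice. Because that source gives triplicates with n = 1 per group, p-values here measure only the spread between these libraries, which may be technical. Levels are FPKM, scaled to the length of a gene's exons and to the fragments aligned in its library, so they can be compared between genes. Values of a group are given in the order of replicates 1 to 3. Since FPKM holds no counts, the depth in reads is unknown. From the values under 0.15 FPKM, depth relative to SMA replicate 1 was estimated at 1.16, 1.09 and 1.05 for control replicates 1 to 3 and 1.01 for both other SMA libraries.

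Hepatocyte growth factor is secreted, largely by mesenchymal cells, as an inactive precursor held by heparan sulphate near the cell. Serine proteases cut it, and the active form brings Met molecules together on neighbouring epithelial, endothelial or neuronal cells, whose kinase then recruits the adaptors Gab1 and Grb2 and switches on the Ras, PI3-kinase and Stat3 routes. In the developing cord the pathway is known for the growth, guidance and survival of limb-innervating motor neurons, and in the liver, where Met is carried by hepatocytes and the ligand is made by stellate cells, for regeneration.

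Smn1, the targeted gene, was at 10.4, 8.64 and 11.9 FPKM across the controls and at 8.48, 9.30 and 11.1 FPKM across the SMA libraries. The groups overlapped, so the genotype labels could not be checked by this gene (log2 fold change -0.09, SE 0.1497, adjusted p = 0.819 in limma). Leaving out 1 library moved this to -0.20 (SE 0.124, without control replicate 2) or 0.01 (SE 0.151, without control replicate 3). The labelled tissue had its markers, as all 10 neuron markers and all 8 motor neuron markers had a value above 0 in every library. Control replicate 2 stood apart from the rest. Its correlation with each other library across genes, which are not independent replicates, was 0.836 to 0.849, and the lowest among the other 5 was 0.983. For this reason Met, Hgf and the pathway counts are given with and without it.

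Met (ENSMUSG00000009376) lies on the plus strand at chr6:17463800-17573980 in GRCm38, with 7 annotated transcripts, 6 of them protein coding, and no other gene overlapping it. Hgf (ENSMUSG00000028864) lies on the plus strand at chr5:16553495-16620152, with 6 transcripts, 3 of them protein coding. The short models Gm43489 and Gm42975 lie inside Hgf on the same strand, so reads there may belong to either gene. The sequence before each gene's first annotated start is shown because both genes were high in 1 control library and only Met in another. It was read from the RefSeq promoter windows (GRCm38.p6, 250 bases before to 50 after a RefSeq start, with windows for both members) and stops before the first base of the GENCODE gene. The Met stretch is chr6:17463707-17463799 and the Hgf stretch is chr5:16553245-16553494, both on the plus strand and written 5′ to 3′, with the GC box letters GGGCGG (or CCGCCC, the same motif on the other strand) in capitals.
Met: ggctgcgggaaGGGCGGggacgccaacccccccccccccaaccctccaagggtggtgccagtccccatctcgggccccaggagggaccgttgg
Hgf: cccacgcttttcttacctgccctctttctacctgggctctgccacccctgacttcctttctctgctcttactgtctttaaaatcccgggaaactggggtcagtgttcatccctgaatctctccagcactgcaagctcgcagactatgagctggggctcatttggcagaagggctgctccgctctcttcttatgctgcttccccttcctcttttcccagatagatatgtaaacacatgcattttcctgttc
The whole Met window of 300 bases held 3 GC boxes, 1 E-box (CACGTG, which reads the same on both strands) and no TATA box (TATAAA or TTTATA). Neither of the 2 Hgf windows held any of these motifs. Among all 32851 windows of that length, 35.7% held the GC box, 7.15% the E-box and 13.6% the TATA box. G and C made up 75.7% of the Met window and 51.3% of each Hgf window. These matches describe the letters of the windows and say nothing of binding.

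Met was at 2.04, 15.3 and 8.72 FPKM across the controls and at 1.90, 1.97 and 2.17 FPKM across the SMA libraries. It was high in 2 of the 3 control libraries, while control replicate 1 lay within the range of the SMA libraries, so the groups overlapped. The control mean was 8.67 ± 6.61 FPKM (SD, n = 3) and the SMA mean 2.01 ± 0.138 FPKM (SD, n = 3), so that nearly all of the spread lay among the control libraries. Control replicate 2 was 2.84 times the mean of the other control libraries, and control replicate 3 was 4.28 times control replicate 1. In this bulk tissue, fewer cells that carry Met and less Met RNA per cell cannot be told apart.

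Hgf was at 0.585, 4.52 and 0.613 FPKM across the controls and at 0.712, 0.5001 and 0.733 FPKM across the SMA libraries. Only control replicate 2 was high, and the other control libraries lay inside the SMA range of 0.5001 to 0.733 FPKM. The control mean was 1.91 ± 2.27 FPKM (SD, n = 3) and the SMA mean 0.648 ± 0.129 FPKM (SD, n = 3). Control replicate 2 was 7.55 times the mean of the other control libraries. Without it, the control mean was 0.599 ± 0.0192 FPKM (SD, n = 2).

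**Figure D1:**
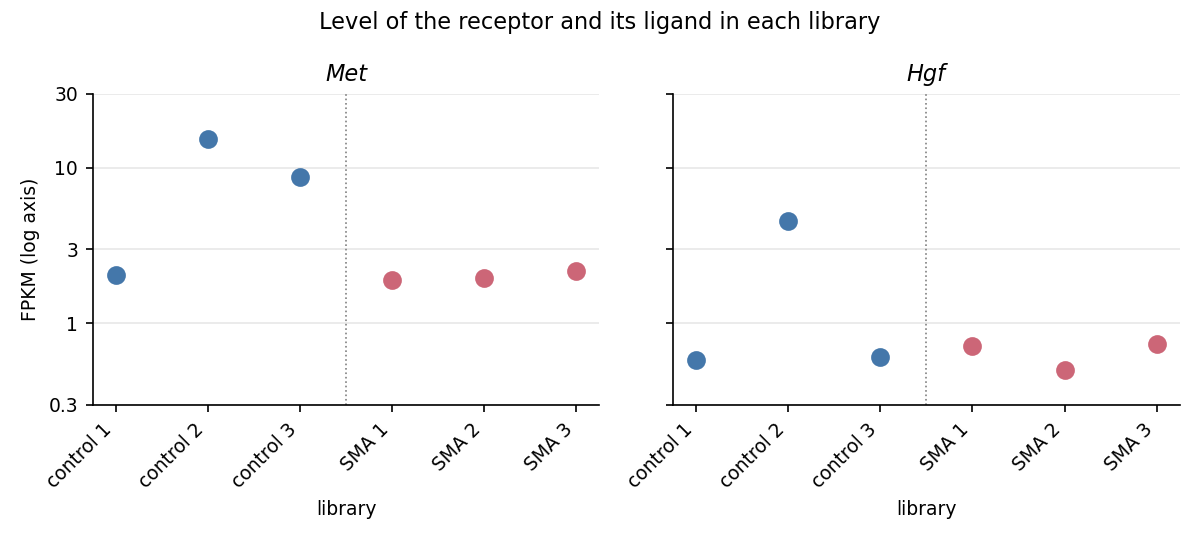
FPKM of Met (left) and Hgf (right) in each of the 6 libraries on a log axis, control in blue and SMA in red, 1 point per library. Met is high in control replicates 2 and 3, at 15.3 and 8.72 FPKM, and Hgf only in control replicate 2, at 4.52 FPKM.

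The receptor was above the ligand in every library. Met over Hgf was 3.48, 3.37 and 14.2 across the controls and 2.67, 3.94 and 2.96 across the SMA libraries. The ratio of control replicate 2 lay within that of the SMA libraries although both of its levels were raised, and only control replicate 3 stood apart. By rank among the genes listed in a library, Met exceeded 39.5%, 78.1% and 63.5% of them across the controls and 40.4%, 41.5% and 43.0% across the SMA libraries. Hgf exceeded 24.4%, 50.7% and 24.3% across the controls and 28.9%, 25.6% and 29.9% across the SMA libraries. Both were thus below the middle of the listed genes in control replicate 1 and the SMA libraries.

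Fold changes below are SMA against control on the log2(FPKM + 1) scale, which understates the change of low genes. For Met the log2 fold change was -1.38 (SE 0.564) over all 6 libraries. Without control replicate 2 it was -0.85 (SE 0.415), without control replicate 3 it was -1.22 (SE 0.683), and without control replicate 1 it was -2.06 (SE 0.234). Without control replicates 2 and 3, a comparison chosen after the values were seen, it was -0.01 (SE 0.154), where the lone control library is assumed to vary like the SMA libraries. This value restates the levels per library and is no separate test, since the libraries left out were those with high Met. By those levels, the difference in Met between the groups lay in control replicates 2 and 3. For Hgf the log2 fold change was -0.56 (SE 0.485) over all 6 libraries and 0.04 (SE 0.152) without control replicate 2. The sign of the Hgf difference turned on that library.

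Many markers of liver and blood cells were also high in control replicate 2. The gene said to lead a list has its highest mean over the 6 libraries. Of 15 hepatocyte markers, all 15 were at least 2-fold higher in control replicate 2 than in every other library, and their summed FPKM was 80.1, 26070 and 54.9 across the controls and 51.1, 101 and 56.3 across the SMA libraries. Alb, serum albumin and the most abundant of them, was at 15895 FPKM there and between 24.6 and 56.2 FPKM elsewhere. Tat was at 0 in control replicate 1 and Tdo2 at 0 in SMA replicate 3, and the other hepatocyte markers were above 0 in every library. All 8 Kupffer cell markers were at least 2-fold higher in control replicate 2 than in every other library, at a summed 93.4 FPKM against 7.56 to 10.99 FPKM, with the iron exporter Slc40a1 the most abundant. The same held for all 8 sinusoidal endothelial markers, at 64.5 FPKM against 4.70 to 8.54 FPKM, led by Stab1, although Stab2 was the higher of these in control replicate 2 (19.1 and 12.5 FPKM). The stellate list, the liver source of the ligand, differed less as a sum, at 111 FPKM against 87.5 to 103 FPKM, because it is dominated by Reln, which neurons also express. Within it, 4 of 8 genes were at least 2-fold above every other library, and Colec10 was at 9.51 FPKM there against at most 0.0493 FPKM elsewhere (these genes were singled out after their values were seen).

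Among blood cells, all 8 erythroid markers (summed 18835 FPKM against 1115 to 1861 FPKM, led by Hbb-bs) and all 8 neutrophil markers (424 FPKM against 6.04 to 12.7 FPKM, led by S100a8) were at least 2-fold higher in control replicate 2. This held for 6 of 8 megakaryocyte markers (summed over the list, 68.3 FPKM against 21.7 to 27.4 FPKM), but not for Gp1bb, which leads the list and was lowest in control replicate 2, at 17.4 FPKM against 18.3 to 24.1 FPKM. Neuron markers went the other way, summing to 870 FPKM there and 1562 to 1698 FPKM elsewhere, led by Stmn2. The pericyte sum of 407 FPKM against 45.7 to 67.8 FPKM came mostly from Vtn, which hepatocytes also make. The part of these cells in the Met and Hgf levels of control replicate 2 was not tested. Over all 17088 genes tested, 8.23% were at least 2-fold higher in control replicate 2 than in every other library and 0.977% were at most 0.5 times every other library. Hgf, 6.17-fold above the next library, belonged to the former, with rank 603 of 17088 by that ratio. Met, 1.75-fold above control replicate 3, did not.

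**Figure D2:**
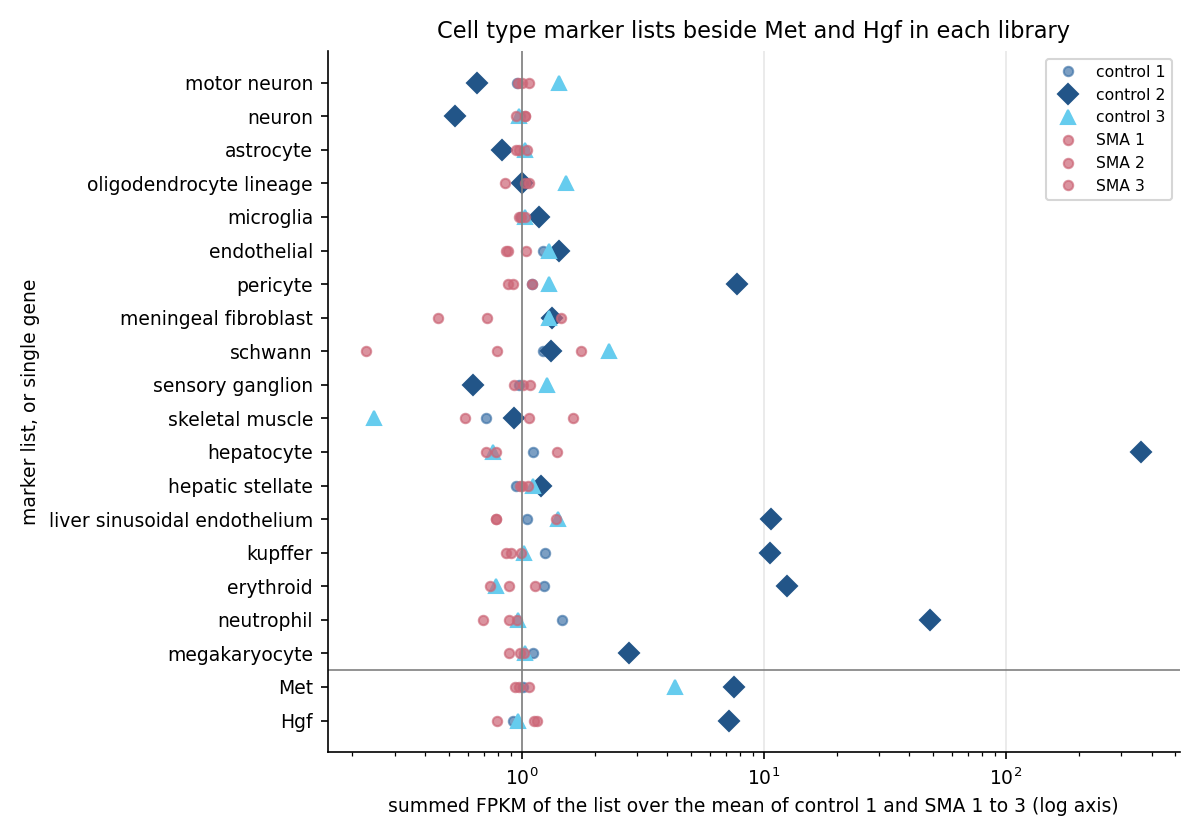
Summed FPKM of each marker list, and FPKM of Met and Hgf, divided by the mean of control replicate 1 and the 3 SMA libraries, on a log axis with 1 point per library. Hepatocyte, Kupffer, sinusoidal endothelial, erythroid and neutrophil lists lie far to the right in control replicate 2 (diamonds), and Met but not Hgf is also raised in control replicate 3 (triangles).

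The high Met value in control replicate 3 had few such liver or blood markers beside it. There the hepatocyte list summed to 54.9 FPKM, inside the range of control replicate 1 and the SMA libraries, and none of its 15 genes exceeded all 4 of these libraries. Oit3 of the sinusoidal list, Marco of the Kupffer list and Ngp of the neutrophil list were at least 2-fold above these libraries, but at only 0.158, 0.104 and 0.763 FPKM and below the minimum mean for a test. Met was 4.02-fold above the highest of control replicate 1 and the SMA libraries. By that ratio Met ranked 1 of the 16574 genes tested without control replicate 2, of which 34 (0.205%) were at least 2-fold above these 4 libraries. None of the 93 other pathway genes tested was among the 34. Next to Met in that order came the pseudogene Gm13349 at 3.70-fold and Npsr1, a neuropeptide receptor gene, at 3.49-fold, both named after their values were seen and both under 2 FPKM.

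The motor neuron, oligodendrocyte lineage and Schwann cell lists were highest in control replicate 3, and of these the Schwann cell list lay furthest above the mean of control replicate 1 and the SMA libraries, among which it also varied most. Motor neuron markers summed to 60.3, 41.1 and 90.1 FPKM across the controls and to 60.8, 67.6 and 63.3 FPKM across the SMA libraries, with the axonal filament gene Prph the most abundant. Of the 8 motor neuron genes, 0 were at least 2-fold higher in control replicate 3 than in control replicate 1 and all SMA libraries, a rule met by 0.205% of all genes. Oligodendrocyte lineage markers, led by Mbp, summed to 1231 FPKM in control replicate 3 against 689 to 862 FPKM in control replicate 1 and the SMA libraries.

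Hox genes, which mark position along the cord, were added as lists after the values were seen. The Hox10 and Hox11 genes, of the lumbar level, summed to 95.4, 58.1 and 148 FPKM across the controls and to 73.7, 97.4 and 81.5 FPKM across the SMA libraries, led by Hoxa10. The Hox12 and Hox13 genes, of the caudal end, summed to 15.9, 7.08 and 0 FPKM across the controls and to 8.02, 11.4 and 4.18 FPKM across the SMA libraries. Control replicate 3 thus had the highest sum of the lumbar genes (though not the highest Hoxc11). All 6 of the most caudal genes that were listed in other libraries were at 0 in it. Genes of the more rostral groups Hox1 to Hox9 summed to 513 FPKM there against 406 to 484 FPKM in control replicate 1 and the SMA libraries. The part of cord level or of these cell types in the Met value was not tested.

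For astrocytes and some other cell types the sums were as follows. Astrocyte markers, led by Gfap, summed to 516 and 639 FPKM in control replicates 2 and 3 against 590 to 653 FPKM in the other 4 libraries. Endothelial markers, led by Cldn5, summed to 68.6, 80.3 and 72.4 FPKM across the controls and to 58.3, 49.2 and 48.3 FPKM across the SMA libraries. Meningeal fibroblast markers, led by Col1a2, summed to 195, 191 and 184 FPKM across the controls and to 208, 102 and 64.1 FPKM across the SMA libraries. Sensory ganglion markers, led by Calca, ranged from 17.7 FPKM in control replicate 2 to 35.6 FPKM in control replicate 3. Skeletal muscle markers, led by Acta1, stayed at 7.31 FPKM or less in every library.

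Of 17 genes listed within 1 megabase of Met, 11 were tested, and 0 of these were at least 2-fold higher in control replicate 2 or in control replicate 3 by the rules given above, which 8.23% and 0.205% of all genes met, so a count of 0 among so few genes is near the background. Of the genes below the minimum mean, Wnt2 was at 1.36 FPKM in control replicate 2 and at most 0.566 FPKM elsewhere, and Tfec at 1.03 FPKM and at most 0.473 FPKM, both high in that library as Met was (named after their values were seen). Gm15473 was at 0.0937 FPKM in control replicate 3 and at most 0.0447 FPKM elsewhere, and Gm28008 at 0.977 FPKM there, 0.934 and 0.993 FPKM in SMA replicates 2 and 3 and 0 in the other libraries. Control replicate 3 over the mean of control replicate 1 and the SMA libraries was 0.688 to 1.25 for the tested genes and 4.32 for Met. Cav1 and Cav2, the caveolin genes on its upstream side, and Capza2, an actin-capping gene on the other, had ratios of 0.976, 1.15 and 0.952 (all 3 singled out by position). Around Hgf, 10 genes were listed and 5 tested, and 0 of these were at least 2-fold higher in control replicate 2, against the same 8.23% of all genes. The levels of the tested genes in that library were 0.328 to 0.773 of the mean of the other 5, and that of Hgf was 7.20. Below the minimum mean, Gm43489 was at 1.07 FPKM in control replicate 2 and at most 0.408 FPKM elsewhere, Gm30613 at 0.640 FPKM and 0 elsewhere, and Gm42975 at 0.110 FPKM and at most 0.0448 FPKM (named after their values were seen).

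**Figure D3:**
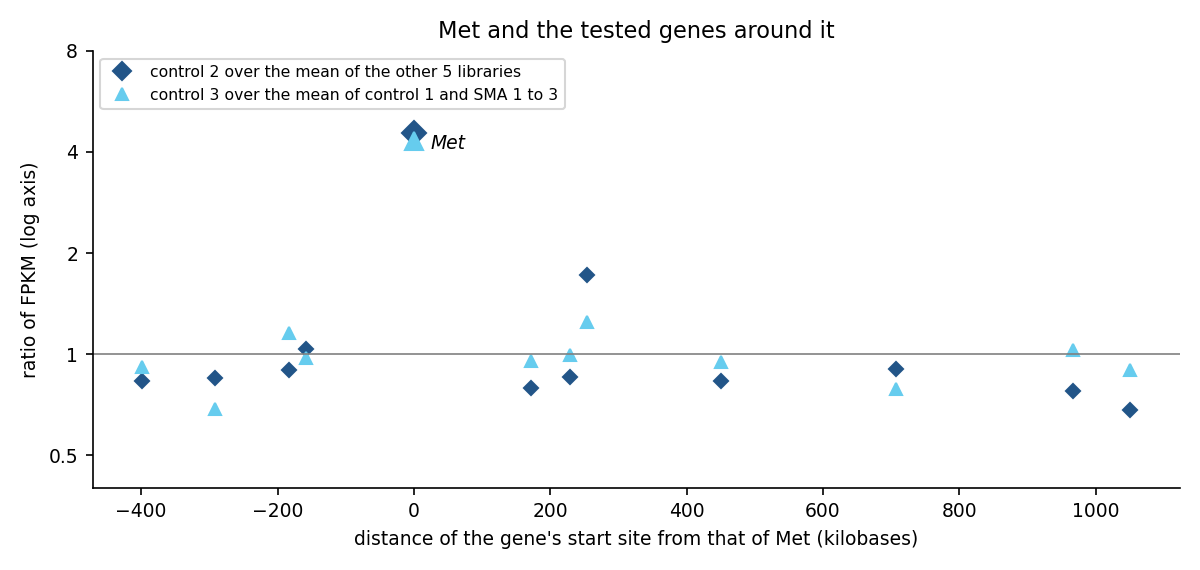
Ratio of FPKM (log axis) for Met and the 11 tested genes within 1 megabase, against the distance of each start site from that of Met. Diamonds give control replicate 2 over the mean of the other 5 libraries and triangles control replicate 3 over the mean of control replicate 1 and the SMA libraries, and Met alone lies above 2 in either.

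The other 106 genes of the pathway, grouped by role, were all listed in at least 1 library, and 101 were tested with limma over all 6 libraries. At an adjusted p under 0.05, 0 of the 101 were called, against 0% of all 17088 genes tested. At an unadjusted p under 0.05, 3 (2.97%) were lower in SMA, against 2.39% of all genes, and 0 were higher, against 3.4% of all genes. Without control replicate 2, 0 of 93 genes were called at an adjusted p under 0.05, against 0.0121% of all 16574 genes, 8 (8.60%) were lower at an unadjusted p, against 5.2%, and 1 (1.08%) was higher, against 5.27%. The median log2 fold change of the pathway genes was -0.01 over all 6 libraries, where that of all genes tested was 0.04, and -0.03 without control replicate 2, where it was 0.00. Without control replicate 2 the pathway thus had a larger share of lower and a smaller share of higher genes than the whole table, a difference that was not tested. Leaving out other libraries in turn moved the lower count from 1 (without SMA replicate 2, against 0.830% of all genes, or SMA replicate 3, against 0.731%) to 6 (without control replicate 3, against 4.16%). In these fits it moved with the whole table. Without SMA replicate 1 it did not, as the count rose to 4 (3.96%) while the share of all genes fell to 1.79%. With 3 libraries in each group, no gene alone can reach an exact two-sided permutation p under 0.1.

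Among ligands and receptors, Mst1, the closest relative of Hgf, was at 18.4 FPKM in control replicate 2. It was absent from control replicate 1 and SMA replicate 1, and the highest of the remaining libraries was 0.219 FPKM. Its receptor Mst1r (Ron), the relative of Met, was at 1.32, 2.14 and 0.421 FPKM across the controls and at 0.753, 0.795 and 0.796 FPKM across the SMA libraries. Mst1r overlapped between the groups and, unlike Met, had its lowest value in control replicate 3 (log2 fold change -0.29, SE 0.294, adjusted p = 0.708 in limma). The value depended on single libraries, at -0.03 (SE 0.218) without control replicate 2 and -0.60 (SE 0.192) without control replicate 3.

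Of the 10 proteases that cut the Hgf precursor or switch on such a protease, 9 were tested, and 7 were at least 2-fold higher in control replicate 2 than in every other library. Over all roles this held for 14 of 101 pathway genes (13.9%), with the 8.23% of all genes beside it. Of these, Hgfac, Plg, Klkb1, F11, F12, F2, Mst1 and Plaur reached the minimum mean of 0.5 FPKM only through control replicate 2. Their place in these counts thus follows in part from the filter, and without that library only 3 of the 10 proteases were tested. Hgfac, the Hgf activator that circulates in plasma, was at 0.693, 31.3 and 0.0593 FPKM across the controls and at 0.555, 0.311 and 0.0330 FPKM across the SMA libraries. Hpn (hepsin), a membrane protease of hepatocytes, was at 0.460, 30.7 and 0.589 FPKM across the controls and at 0.501, 0.521 and 1.45 FPKM across the SMA libraries. Both were far lower outside control replicate 2, where the highest value was the 1.45 FPKM of Hpn. Plg (plasminogen), which shares the kringle fold of the ligand, was at 170 FPKM in control replicate 2 and at most 0.583 FPKM elsewhere. F2 (prothrombin), whose active form cleaves the Hgfac precursor, was at 168 FPKM there and at most 0.452 FPKM elsewhere. The contact-system genes Klkb1, F11 and F12 were at 27.1, 24.99 and 49.6 FPKM in that library, and none exceeded 0.299 FPKM in any other.

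The other proteases lacked this pattern. Plat (tissue plasminogen activator) was at 20.5, 14.8 and 16.7 FPKM across the controls and at 18.5, 16.8 and 16.1 FPKM across the SMA libraries. It had the highest level of the protease list outside control replicate 2, and the groups overlapped (log2 fold change -0.01, SE 0.136, adjusted p = 0.985 in limma). Plau (urokinase) was at 1.07, 1.54 and 0.378 FPKM across the controls and at 0.418, 0.786 and 0.709 FPKM across the SMA libraries. St14 (matriptase), a membrane protease of epithelia, was at 0.190, 0.219 and 0.289 FPKM across the controls and at 0.520, 0.553 and 0.512 FPKM across the SMA libraries. Plau overlapped between the groups, and St14 was higher in every SMA than in every control library but was below the minimum mean of 0.5 FPKM and so was not tested.

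The inhibitors of these proteases were led by Spint2, a membrane Kunitz-type inhibitor, at 10.2, 14.5 and 11.8 FPKM across the controls and 11.7, 13.7 and 12.2 FPKM across the SMA libraries. The groups overlapped (log2 fold change 0.05, SE 0.143, adjusted p = 0.904 in limma), and the value was 0.17 (SE 0.101) without control replicate 2 and -0.06 (SE 0.135) without control replicate 1. Its relative Spint1 and Serpina5, a plasma serpin, were under the minimum mean. Spint1 stayed between 0.111 and 0.287 FPKM, and Serpina5 was above 0 only in control replicates 2 and 3, at 0.0461 and 0.0236 FPKM.

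**Figure D4:**
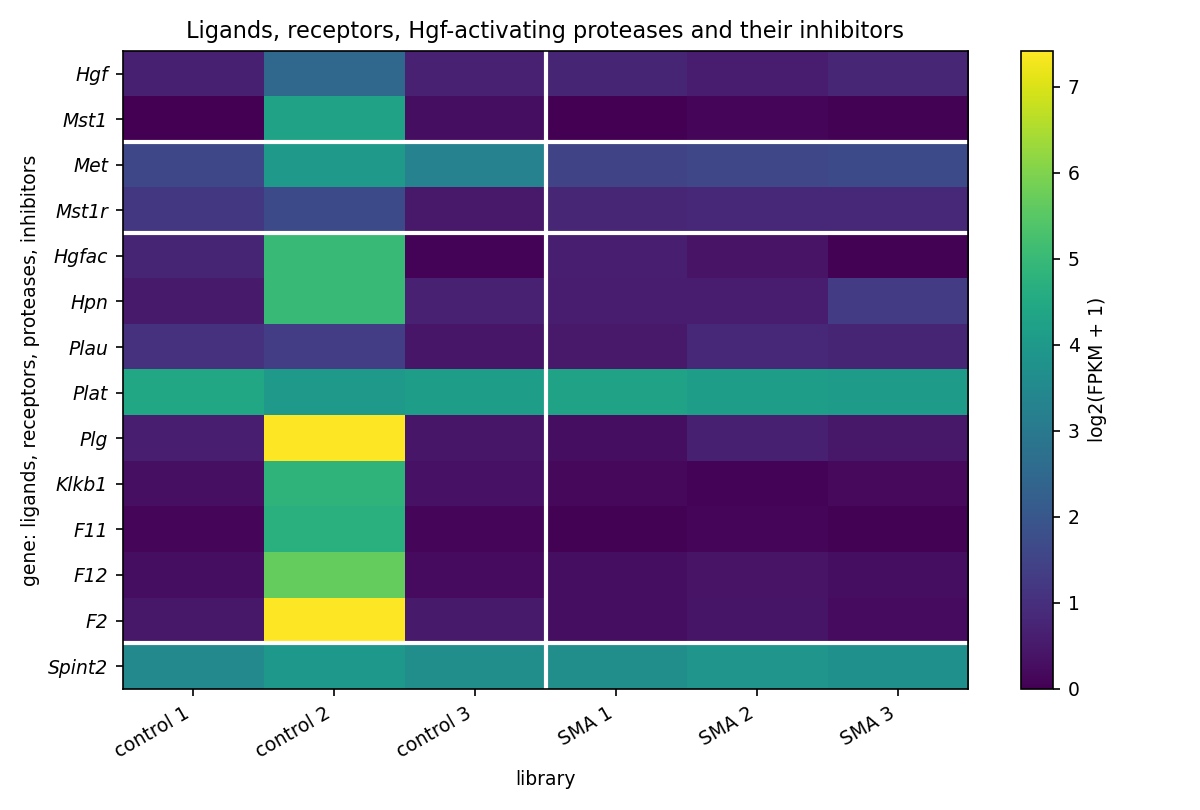
Levels of Met, Hgf and the tested ligand, receptor, protease and inhibitor genes in each library as log2(FPKM + 1), in color from dark (0) to yellow. Both ligands and 7 proteases are raised in control replicate 2, whereas Plat and Spint2 are at similar levels in all 6 libraries.

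Surface partners of Met comprise semaphorin receptors, integrins, other receptors and the heparan sulphate carriers that hold the ligand. Of the 17 tested over all 6 libraries, 1 was lower in SMA at an unadjusted p under 0.05, against 2.39% of all genes. This was Plxnb3, a class B plexin, at 6.11, 6.73 and 7.57 FPKM across the controls and at 5.34, 5.28 and 5.38 FPKM across the SMA libraries. All 3 SMA libraries lay below the controls, but the difference did not pass adjustment (log2 fold change -0.30, SE 0.108, adjusted p = 0.683 in limma, and -0.30, SE 0.117, adjusted p = 0.443 without control replicate 2). Egfr, a receptor kinase that can act together with Met, was at 7.14, 18.6 and 7.47 FPKM across the controls and at 5.88, 5.86 and 4.23 FPKM across the SMA libraries. The control libraries were all above the SMA libraries, control replicate 2 most of all, and the log2 fold change was -0.82 (SE 0.347, adjusted p = 0.683 in limma). Without that library it was -0.40 (SE 0.145, adjusted p = 0.422). Besides Egfr, the syndecans Sdc1 and Sdc4 and the death receptor Fas were at least 2-fold higher in control replicate 2 than elsewhere, at 22.9, 82.6 and 4.35 FPKM.

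Of 38 adaptors and kinases downstream of the receptor, all were tested and 0 passed an unadjusted p under 0.05 over all 6 libraries. Without control replicate 2, 3 of 38 were lower (Crkl, Nras and Pak1), against 5.2% of all genes, and 1 was higher (Map2k2), against 5.27%. Pak1, a kinase that acts on the actin skeleton below Rac1 and Cdc42, was at 51.5, 27.5 and 52.7 FPKM across the controls and at 42.3, 46.3 and 46.7 FPKM across the SMA libraries. It was low in control replicate 2, so its log2 fold change turned from 0.09 (SE 0.247) to -0.21 (SE 0.0647, adjusted p = 0.375 in limma) without that library. Nras, a Ras GTPase, moved from -0.12 (SE 0.108) to -0.21 (SE 0.0644, adjusted p = 0.366), and the adaptor gene Crkl from -0.16 (SE 0.141) to -0.27 (SE 0.105, adjusted p = 0.443). Map2k2, which encodes the kinase Mek2, was at 34.9, 35.1 and 35.4 FPKM across the controls and at 39.3, 39.3 and 38.6 FPKM across the SMA libraries. Its groups did not overlap, with a log2 fold change of 0.15 in both comparisons (SE 0.0799 and 0.0553, adjusted p = 0.683 and 0.436), but 0.09 (SE 0.0755) with median ratio scaling and 0.17 (SE 0.131) with the same summed FPKM. In this list only Ranbp10, an adaptor of the Ranbp9 family, was at least 2-fold higher in control replicate 2, at 19.6 FPKM against 7.77 to 9.33 FPKM.

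Of 20 genes that attenuate or degrade the receptor, 1 was lower at an unadjusted p under 0.05 over all 6 libraries, against 2.39% of all genes. Ptpn2, a phosphatase that acts on Met, was at 6.68, 8.29 and 7.74 FPKM across the controls and at 5.51, 6.09 and 6.20 FPKM across the SMA libraries. The groups did not overlap, and the log2 fold change was -0.30 (SE 0.114, adjusted p = 0.683 in limma) and -0.24 (SE 0.111, adjusted p = 0.498) without control replicate 2. Without that library the 1 lower gene, against 5.2% of all genes, was Dusp6, the feedback phosphatase of Erk, at 14.9, 13.7 and 13.9 FPKM across the controls and 13.4, 9.46 and 10.9 FPKM across the SMA libraries. Its log2 fold change was -0.32 (SE 0.135, adjusted p = 0.683) over all 6 libraries and -0.34 (SE 0.133, adjusted p = 0.443) without control replicate 2. No member of this list was at least 2-fold higher in control replicate 2.

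Among 15 factors that drive Met transcription or respond to the pathway, 14 were tested. Ets1, a transcription factor known to bind the Met promoter, was at 9.48, 12.8 and 10.3 FPKM across the controls and at 7.31, 5.12 and 4.60 FPKM across the SMA libraries. All SMA libraries lay below all controls, whether or not control replicate 2 is counted. The summed endothelial markers were split in the same way, at 68.6, 80.3 and 72.4 FPKM across the controls and 58.3, 49.2 and 48.3 FPKM across the SMA libraries. Of these markers, Slc2a1, Flt1, Slco1a4 and Cdh5 overlapped between the groups and the others did not. The part of endothelial cells in the level of Ets1 was not tested. The log2 fold change of Ets1 was -0.84 (SE 0.184, adjusted p = 0.683 in limma), and -0.73 (SE 0.170, adjusted p = 0.2999) without control replicate 2. It thus passed an unadjusted p under 0.05 but no adjustment in both comparisons. Unlike Met, Ets1 had similar levels in control replicates 1 and 3. Hif1a, the oxygen-regulated factor that can raise Met transcription, was at 36.1, 24.5 and 35.6 FPKM across the controls and at 30.9, 31.1 and 31.5 FPKM across the SMA libraries. The SMA libraries lay between control replicate 2 and the other controls, and the log2 fold change was -0.02 (SE 0.159) over all 6 libraries and -0.20 (SE 0.0565, adjusted p = 0.360) without control replicate 2.

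**Figure D5:**
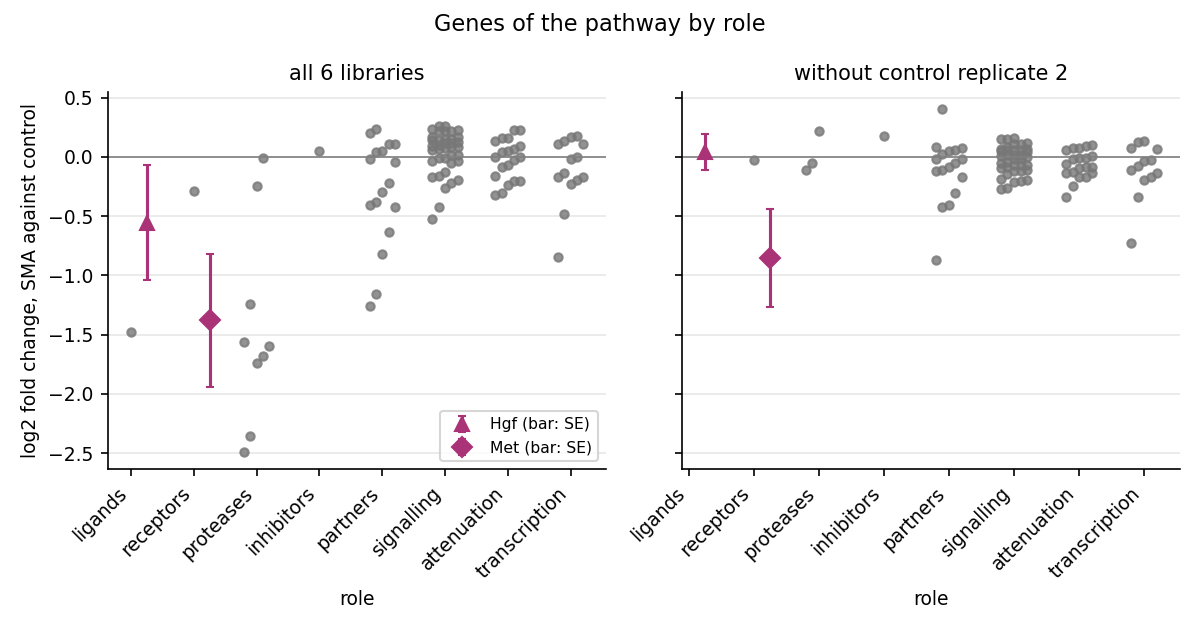
Log2 fold change, SMA against control, of each tested pathway gene by role (grey points), with Met (diamond) and Hgf (triangle) and their SE as bars, over all 6 libraries (left) and without control replicate 2 (right). Mst1, Plaur and 6 proteases shown on the left are absent on the right because their mean without that library was under 0.5 FPKM.

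Likeness of profile was measured as the root mean square difference between log2(FPKM + 1) values, each gene centred on its own mean, over the 17088 genes tested. Over 6 libraries the genes nearest to Met were Gchfr, Cenpa, Vwf, Tmem176a and Pdia5, at differences of 0.36, 0.37, 0.39, 0.39 and 0.40. All 5 had their highest value in control replicate 2 and the next in control replicate 3, which their choice by likeness to Met favours. The genes nearest to Hgf, at 0.05 to 0.06, included Hist2h2aa1, Acadl, Etfdh and Slc19a2, of which Acadl and Etfdh act in mitochondrial fat oxidation. Acadl was at 68.9 FPKM in control replicate 2 and between 19.6 and 22.0 FPKM in the other 5. In FPKM, Hist2h2aa1, Acadl, Etfdh and Slc19a2 rose there by a smaller factor than Hgf, whose change this scale understates. Over the 5 libraries without control replicate 2, the genes nearest to Met were Adra1d, Zhx2, Pycard, Gm10863 and Hoxa11, at 0.23 to 0.27. All 5 were highest in control replicate 3, which the same choice favours. Hoxa11 was at 2.49 and 6.12 FPKM in control replicates 1 and 3 and at 2.22 to 2.71 FPKM in the SMA libraries. For Hgf these included Usp48, Syt15, 1700124L16Rik and Capn6, at 0.01 to 0.02, small differences because Hgf itself varied little there, at 0.629 ± 0.0956 FPKM (SD, n = 5).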

How the data were processed

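The authors aligned reads of ribosome-depleted, strand-specific total RNA libraries with hisat2 and deposited FPKM values per gene, computed for each library with cufflinks. The submitters' processing notes name mm10. Versions and the annotation release are not given in the sources used here. Genes absent from a library were set to 0 FPKM. Gene loci, whose starts were shifted to count from 1, were compared with GENCODE M21 on GRCm38, where 99.3% of gene identifiers were found. The study's methods compare read counts. Since FPKM values are not counts, limma 3.58.1 in R 4.3.3 (lmFit, eBayes with trend, two-sided, Benjamini-Hochberg over all genes tested) was fitted to log2(FPKM + 1) where a gene's mean reached 0.5 FPKM, after it was tested on simulated data. Depth in reads is unknown, and relative depth came from ratios of low values. Named were both members, Smn1, all ligands, receptors, proteases and inhibitors of the pathway, in the other pathway lists the genes at an unadjusted p under 0.05 in the comparison of all 6 libraries or without control replicate 2, the most abundant gene of each marker list, and the 5 genes most similar in profile, apart from a few genes that are not reported here (for this reason the text gives no sums of 2 marker lists). Members, lists and rules were chosen with earlier results of these data known, and the Hox lists and the comparison without control replicates 2 and 3 after the values per library were seen. Alternatives were a pseudocount of 0.1, no filter or a minimum mean of 1 FPKM, rescaling to the same summed FPKM, median ratio scaling, eBayes with robust=TRUE, a block for replicate number and leaving out each library. No column of another series was present.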

Additional observations from a re-analysis of the deposited data

How the results depend on the processing

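Over the 14 alternatives, 0 pathway genes passed an adjusted p of 0.05 in limma. Leave-one-out fits gave log2 fold changes from -2.06 to -0.85 for Met and from -0.86 to 0.04 for Hgf, pathway counts at an unadjusted p under 0.05 from 1 to 8 lower (0.731% to 5.2% of all genes) and from 0 to 3 higher (1.25% to 6.07% of all genes), and 0 to 0 past adjustment. Without control replicates 2 and 3, an alternative added after the data were seen, Met was at -0.0138, and 12 pathway genes were lower (12.9%, against 8.24% of all genes) and 4 higher (4.30%, against 8.21%) at an unadjusted p. With median ratio scaling 6 pathway genes were lower at an unadjusted p (5.94%, against 3.30% of all genes), and with no filter on low values 2 were higher (1.89%, against 3.45%). The level of Hgf in control replicate 2 over the other controls was 6.45 with the same summed FPKM and 8.43 with median ratio scaling. For these changes the cause was not tested, other than that fewer libraries enter some of them. With a pseudocount of 0.1 the log2 fold changes were -1.65 for Met and -0.83 for Hgf. SMA and control libraries share replicate numbers, and the labels do not say whether same-numbered libraries were paired. The deviations of same-numbered libraries correlated at -0.037, 0.0161 and 0.0766, and those of the other pairs at -0.0554 to 0.0434. With 3 libraries in each group, these values cannot settle whether there was a pairing. With the replicate block, the log2 fold changes stayed at -1.38 (SE 0.458) for Met and -0.56 (SE 0.456) for Hgf, and 3 pathway genes were lower and 0 higher at an unadjusted p (1.77% and 2.08% of all genes). Of 307 refitted values of 23 single genes, 0 passed adjustment, 15 had the other sign and 7 moved by more than 1 SD. At the low level of Hgf, counting error could not be given because depth in reads is unknown.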
